A study of Mus musculus with 10 samples.

Results

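The 10 genes described here encode proteins of the smooth muscle contractile machinery and its cytoskeleton: Acta2, Actg2, Myh11, Myl9, Mylk, Tagln, Cnn1, Smtn, Lmod1 and Des. They were taken by name, not by their values, and all 10 were found among the 45707 rows of the table of normalized gene counts. RNA-sequencing libraries were made from jejunum, the middle part of the small intestine, of 5 Vil-Cre and 5 Vil-Cre:NDI1 mice, with 1 library per mouse. By the study's methods the mice were male littermates. All carried the Villin-Cre transgene, in which the Villin promoter drives Cre recombinase in intestinal epithelium. Vil-Cre:NDI1 mice also carried NDI1, a yeast NADH dehydrogenase, behind a lox-stop-lox sequence at ROSA26, so that Cre switches it on in epithelial cells and smooth muscle is not the targeted cell type. The study's methods give an age of 7 to 12 weeks for animals on standard chow. All mice were fasted overnight for 16 to 18 h and given water by gavage, and tissue was taken 1 h later. The lumen was flushed and pressed out gently before whole tissue was frozen, so each library holds epithelium together with the layers beneath it. The comparison asks whether expression of NDI1 in the epithelium altered the jejunal transcriptome, here in the genes of the muscle wall.

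The wall of the jejunum holds an inner circular and an outer longitudinal layer of smooth muscle and a thin muscularis mucosae under the epithelium, and smooth muscle also surrounds its vessels. Contraction begins when a rise in calcium activates myosin light chain kinase, which phosphorylates the regulatory light chain and lets smooth muscle myosin pull on actin filaments. Most genes of this machinery are transcribed under serum response factor, which binds the CArG box, an A- and T-rich stretch between 2 C and 2 G bases, together with the coactivator myocardin.

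The CArG box was looked for in the 250 bases before the RefSeq transcription start (GRCm38.p6), where the table of promoter windows held an entry for 7 of the 10 genes. Actg2, Myh11 and Tagln were without an entry. A strict match, with 6 A or T bases in the middle, was found in the window of Myl9, and matches with 1 other base among those 6 were found in the windows of Acta2 and Myl9. The windows of Mylk, Cnn1, Smtn, Lmod1 and Des held no match of either kind. The RefSeq start is not always the outer end of the gene span printed below for each gene. Both stretches of Acta2 lie inside its span. So do the windows of Mylk (chr16:34784700-34784999) and Smtn (chr11:3539243-3539542), where the lack of a match concerns an internal start. Of all 32851 promoter windows in the table, 1.47% held a strict match and 8.59% a match with at most 1 such base. The pattern is the same on both strands. The 10 bases of each match are in capitals below, with 20 bases on each side, 5′ to 3′ on the strand of the gene. They are shown because this element is what the gene class is known for. The printed stretches of Acta2, on the minus strand, are chr19:34255428-34255477 (match 84 to 75 bases before the start) and chr19:34255378-34255427 (match at 34 to 25 bases). Those of Myl9, on the plus strand, are chr2:156775283-156775332 (strict match at 161 to 152 bases) and chr2:156775345-156775394 (match at 99 to 90 bases).
Acta2, distal: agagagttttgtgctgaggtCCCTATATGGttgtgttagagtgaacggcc
Acta2, proximal: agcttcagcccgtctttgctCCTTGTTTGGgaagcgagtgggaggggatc
Myl9, distal: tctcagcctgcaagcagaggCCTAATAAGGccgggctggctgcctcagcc
Myl9, proximal: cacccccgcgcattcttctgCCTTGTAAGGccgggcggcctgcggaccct
A match describes these letters only, and the absence of one says nothing about binding of the factor.

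Reads on genes ranged from 10145705 to 11648074 in Vil-Cre and from 10313793 to 12371530 in Vil-Cre:NDI1 libraries. NDI1, the inserted gene, had 0 to 1 read in each Vil-Cre library and 1002 to 2659 reads in each Vil-Cre:NDI1 library. A pair of libraries stood apart for the muscle genes, 1 in each genotype, Vil-Cre 4 and Vil-Cre:NDI1 1, although their depth (10960851 and 11381225 reads) was within the range of the others. Although the study's methods describe all mice as male, the X-inactivation transcript Xist was raised in some libraries. It was at 36.4 normalized counts in Vil-Cre 4, 76.7 in Vil-Cre 5 and 146 in Vil-Cre:NDI1 1, against 0.979 to 7.01 in the other 7 libraries. The part of either fact in the values below was not tested. Nothing in the labels names a batch.

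None of the 10 muscle genes differed between the genotypes in limma on log2(normalized count + 1). A normalized count is the number of reads on a gene divided by the size factor of its library. At a Benjamini-Hochberg adjusted p threshold of 0.05, 0 of 10 were called, where 0.00699% of the 14301 genes tested were called (1 gene, NDI1). Of the 10 genes, 0 had an unadjusted limma p under 0.05 (4.24% of all genes), and DESeq2 and edgeR, run on reads recovered from the steps of the values, also called 0 (0.168% and 0.00699% of all genes). The groups overlapped for all 10, where they did not overlap for 0.699% of all genes. Since each library is whole tissue, fewer muscle cells and less of these RNAs per cell cannot be told apart.

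The smooth muscle actins form the thin filaments. Acta2 (ENSMUSG00000035783; GRCm38 chr19:34241090-34255590, minus strand) encodes alpha-actin, the main actin of vascular smooth muscle, which is also made in visceral muscle and myofibroblasts. Its normalized counts were 3663, 3321, 3808, 1847 and 3365 in Vil-Cre 1 to 5. They were 1934, 2973, 2689, 2985 and 3913 in Vil-Cre:NDI1 1 to 5. The groups overlapped, with 1 low library in each and the highest value of all in Vil-Cre:NDI1 5. The means were 3201 ± 784 in Vil-Cre and 2899 ± 710.2 in Vil-Cre:NDI1 (SD, n = 5), a log2 fold change of -0.13 (SE 0.22; limma, Benjamini-Hochberg adjusted p = 0.998).

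Actg2 (ENSMUSG00000059430; chr6:83512905-83536265, minus strand) encodes gamma-actin of enteric smooth muscle. It was at 2128, 2000.5, 2142, 873 and 2021 normalized counts in Vil-Cre 1 to 5. In Vil-Cre:NDI1 1 to 5 it was at 978, 1988, 1734, 2103 and 2724. Outside Vil-Cre 4 the Vil-Cre mice lay close together, and the low library of each genotype was below every other library of both. The log2 fold change was 0.05 (SE 0.30; limma, Benjamini-Hochberg adjusted p = 0.998), with means of 1833 ± 540.4 and 1905 ± 634 (SD, n = 5). Of the 10 genes Actg2 had the widest range between its lowest and highest library.

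Smooth muscle myosin carries the motor. Myh11 (ENSMUSG00000018830; chr16:14194535-14291372, minus strand), its heavy chain, is a specific marker of the mature smooth muscle cell. Normalized counts of Myh11 were 9143, 10315, 11595, 5225 and 8489 in Vil-Cre 1 to 5. The Vil-Cre:NDI1 mice had 6357, 8829, 7882, 6732 and 9399. Vil-Cre 4 was the lowest and Vil-Cre 3 the highest of all 10, so that 1 genotype held both ends of the range. Its log2 fold change, -0.16 (SE 0.20; limma, Benjamini-Hochberg adjusted p = 0.998), was the one farthest from 0 among the 10 genes, with means of 8954 ± 2397 and 7839.7 ± 1308 (SD, n = 5). Without Vil-Cre 4 it was -0.34, with an unadjusted limma p of 0.036 and an adjusted p of 0.826.

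Mylk (ENSMUSG00000022836; chr16:34745210-35002420, plus strand) encodes myosin light chain kinase. It had 7459, 8035, 9303, 6265 and 7537 normalized counts in Vil-Cre 1 to 5, and 6096, 7555, 6952, 6464 and 8962 in Vil-Cre:NDI1 1 to 5. The groups overlapped over nearly their whole ranges, and the low libraries fell less far below the rest than for the actins. The log2 fold change was -0.10 (SE 0.13), the smallest error of the 10, and the highest library was only 1.53-fold above the lowest. Myl9 (ENSMUSG00000067818; chr2:156775420-156781658, plus strand) encodes the regulatory light chain that this kinase phosphorylates. It ranged from 1395 to 2720.4 in Vil-Cre and from 1424 to 2962 in Vil-Cre:NDI1, with a log2 fold change of -0.10 (SE 0.22).

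Tagln, Cnn1, Smtn and Lmod1 encode proteins that bind actin filaments. Tagln (ENSMUSG00000032085; chr9:45929619-45936058, minus strand) encodes transgelin, also called SM22-alpha. It was at 3162, 3276, 2984, 1526 and 2779 normalized counts in Vil-Cre 1 to 5. In Vil-Cre:NDI1 1 to 5 it was at 1689, 2831, 2163, 2759 and 3729. The groups overlapped, and the value of Vil-Cre:NDI1 5 was above all 5 Vil-Cre mice. Cnn1 (ENSMUSG00000001349; chr9:22099216-22109630, plus strand), calponin 1, which inhibits the ATPase of myosin, ranged from 551 to 1247 in Vil-Cre and from 634 to 1224 in Vil-Cre:NDI1. Log2 fold changes were -0.06 for Tagln (SE 0.24) and -0.06 for Cnn1 (SE 0.24).

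Smtn (ENSMUSG00000020439; chr11:3517523-3540612, minus strand) encodes smoothelin, a cytoskeletal protein of contractile smooth muscle cells. Its range was 476 to 1005 in Vil-Cre and 582 to 1052 in Vil-Cre:NDI1, and its log2 fold change of 0.01 (SE 0.21) was the one nearest to 0. Lmod1 (ENSMUSG00000048096; chr1:135324807-135368065, plus strand) encodes leiomodin 1, which starts new actin filaments. It had the lowest counts of the 10 genes, 318 to 459 in Vil-Cre and 286 to 458 in Vil-Cre:NDI1, and a log2 fold change of -0.10 (SE 0.15). Lmod1 was the exception to the order of the low libraries, since Vil-Cre:NDI1 4 lay between them.

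Des (ENSMUSG00000026208; chr1:75360329-75368579, plus strand) encodes desmin, the intermediate filament that links the contractile apparatus to dense bodies and the membrane. It was at 3472, 3488, 3699, 1819 and 3331 normalized counts in Vil-Cre 1 to 5. In Vil-Cre:NDI1 1 to 5 it was at 2089, 3339, 2669, 2874 and 4044. The groups overlapped, and 4 of the 5 Vil-Cre mice lay within a narrow band. The log2 fold change was -0.07 (SE 0.22), with means of 3162 ± 762 and 3003 ± 735 (SD, n = 5).

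**Figure D1:**
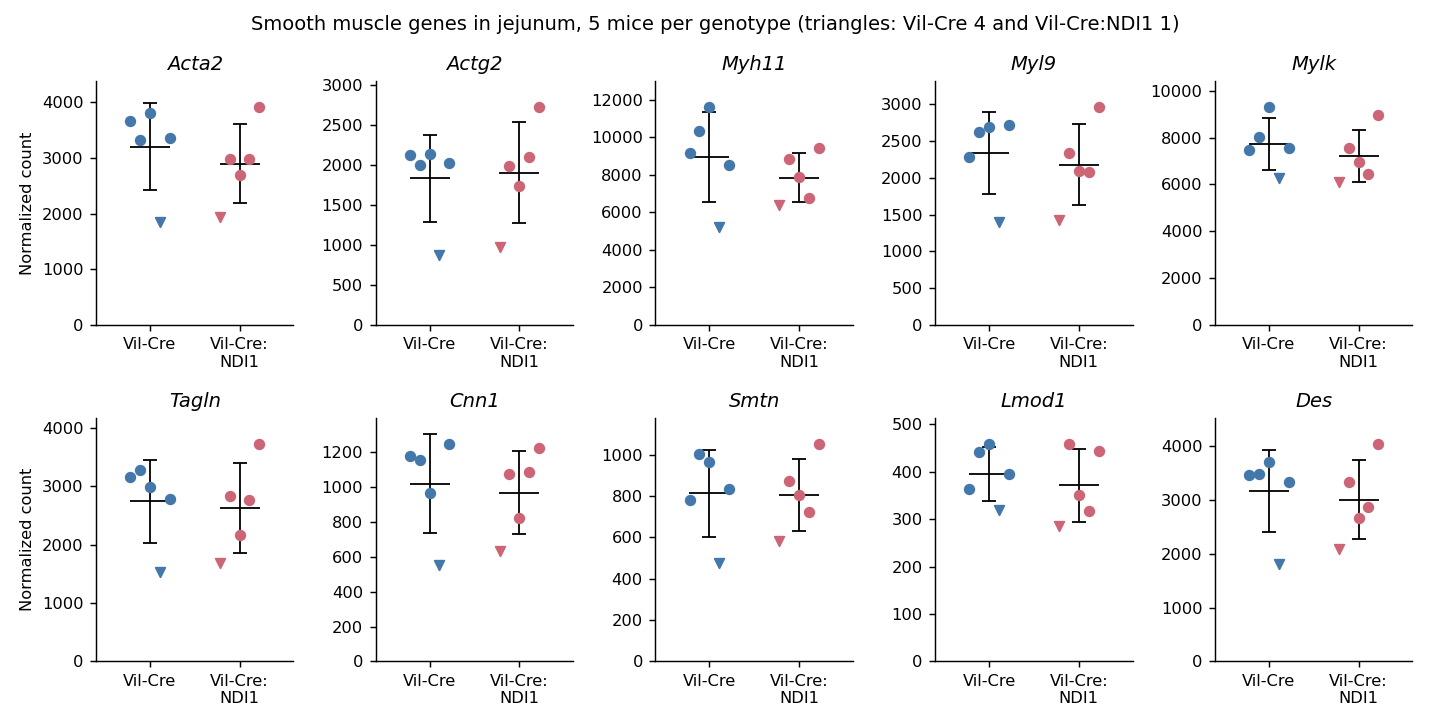
Normalized counts of the 10 smooth muscle genes (y axis, from 0) in 5 Vil-Cre and 5 Vil-Cre:NDI1 mice (x axis); each point is 1 mouse, the horizontal line the mean and the bars the SD. Triangles mark Vil-Cre 4 and Vil-Cre:NDI1 1, which lie at the bottom of their group for all 10 genes, for example at 873 and 978 for Actg2, where the other 8 mice were at 1734 or above.

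Over the 10 genes, Benjamini-Hochberg adjusted p-values from limma were 0.998 to 0.999, and exact two-sided permutation p-values over all assignments of the mice were 0.468 to 0.976 (the smallest possible is 0.00794). All 10 genes, against 79.6% of all genes tested, had a 95% interval of the difference that stayed inside a 2-fold change up or down. It ran from -0.38 to 0.18 on the log2 scale for Mylk, the narrowest, and from -0.60 to 0.71 for Actg2, the widest. The log2 fold change was below 0 for 8 of the 10, against 48.8% of all genes, and its median was -0.083, against 0.0052 over all genes. These genes move together between mice, so their shared sign is not 8 separate observations. The median was -0.26 without Vil-Cre 4, with 10 of 10 genes below 0, and 0.049 without Vil-Cre:NDI1 1, with 3 of 10 below 0. Without both it was -0.12, and the 10 genes were again called 0 times.

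**Figure D2:**
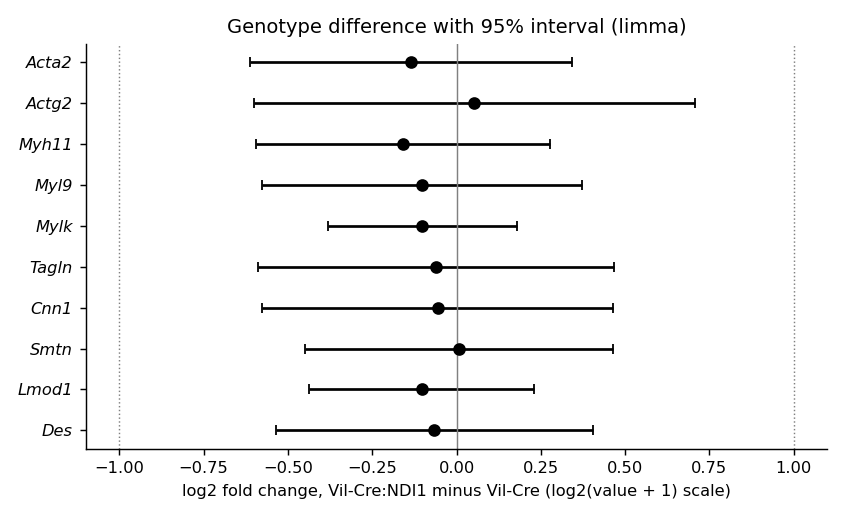
Log2 fold change of each gene (x axis, Vil-Cre:NDI1 minus Vil-Cre, on the log2(normalized count + 1) scale) with its 95% interval from limma, for the 10 genes (y axis); n = 5 mice per genotype. Every interval holds 0 and lies inside the dotted lines, which mark a 2-fold difference in either direction.

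Mice of 1 genotype differed more from each other than the genotypes did. Vil-Cre 4 was the lowest library for 8 of the 10 genes, and Vil-Cre:NDI1 1 for Mylk and Lmod1. These were the lowest pair for 9 of the 10 genes, as for 5.09% of all genes tested, a description made after their values were seen. Averaged over both libraries, Actg2 stood at 0.440 times its mean in the other 8. The other actin, Acta2, was at 0.566, Tagln at 0.543, Cnn1 at 0.542, and Myl9 and Des at 0.570 and 0.581. Smtn and Myh11 were at 0.602 and 0.640, and the ratio was nearest to 1 for Lmod1 (0.749) and Mylk (0.794). At the other end, Vil-Cre:NDI1 5 was the highest library for 6 of the 10 genes, against 15.6% of all genes.

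The 10 genes together took 0.309, 0.321, 0.346, 0.183 and 0.322% of the reads on genes in Vil-Cre 1 to 5. In Vil-Cre:NDI1 1 to 5 they took 0.198, 0.286, 0.254, 0.251 and 0.318%. The low library of each genotype was below all other 8, and the rest of the groups overlapped. The mean shares were 0.296 ± 0.0645% and 0.261 ± 0.0447% (SD, n = 5). Within a genotype, the median SD of log2(normalized count + 1) over the 10 genes was 0.393, against 0.182 over the 4870 genes with a mean at or above that of Lmod1. Actg2 was the most variable (SD 0.554, above 95.4% of those genes), and Lmod1 (0.258, above 73.6%) and Mylk (0.211, above 60.1%) were the least.

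**Figure D3:**
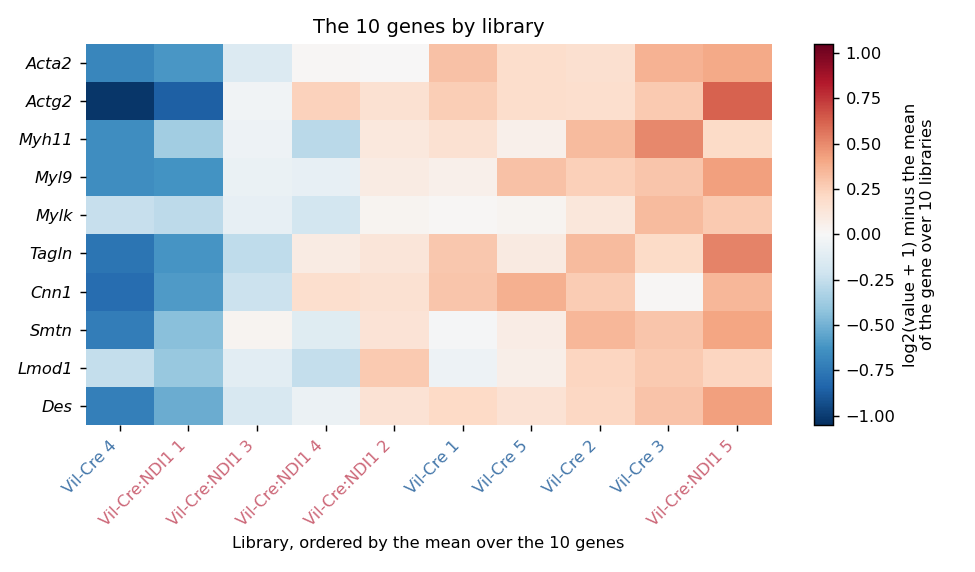
Difference of log2(normalized count + 1) from the mean of each gene over the 10 libraries (colour, blue lower and red higher) for the 10 genes (rows) and 10 libraries (columns, ordered by the mean over the genes; blue names are Vil-Cre and red names Vil-Cre:NDI1). Vil-Cre 4 (mean -0.65) and Vil-Cre:NDI1 1 (mean -0.53) are blue in all 10 rows, and Vil-Cre:NDI1 5 (mean 0.39) is red in all 10.

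The levels rose and fell together from mouse to mouse. Over the 45 pairs of genes, Pearson's r of log2(normalized count + 1) in the 10 libraries was 0.648 to 0.978 with a median of 0.905, and Spearman's rho was 0.394 to 0.964 with a median of 0.818. The closest pair was Acta2 and Des (r = 0.978), and the loosest was Mylk and Cnn1 (0.648). With the genotype means removed the median r was 0.906. Without Vil-Cre 4 and Vil-Cre:NDI1 1, the libraries farthest from the median, r was above 0 for all 45 pairs, at 0.0942 to 0.912 with a median of 0.745, so the closeness but not the sign rested on those libraries. All points share the libraries, their size factors and the tissue piece. Des followed the mean of the other 9 genes most closely (r = 0.995, and 0.984 without the low libraries), and Lmod1 least closely (0.824). Cnn1 went from 0.901 to 0.488 when the low libraries were left out.

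Because the genes moved together, their proportions varied less than their levels. Desmin made up 9.89% of the summed normalized count on average, and this share had a coefficient of variation of 5.13%, against 23.1% for its level. Actg2 made up 5.93%, from 4.30% in Vil-Cre 4 to 7.48% in Vil-Cre:NDI1 4, and was the least constant share, with a coefficient of variation of 17.1%. In the low libraries the shares moved toward Mylk, which made up 30.9% in Vil-Cre 4 and 27.6% in Vil-Cre:NDI1 1, and 22.2 to 24.7% in the other 8.

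The ratio of Actg2 to Acta2 normalized counts, not scaled to length, was 0.581, 0.602, 0.562, 0.472 and 0.601 in Vil-Cre 1 to 5. It was 0.506, 0.669, 0.645, 0.704 and 0.696 in Vil-Cre:NDI1 1 to 5. The low libraries had the lowest ratio of their genotype, and the other 4 Vil-Cre:NDI1 mice were above all Vil-Cre mice, a split seen after the values were known and not tested. The means were 0.564 ± 0.0536 and 0.644 ± 0.0807 (SD, n = 5), and the groups overlapped.

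Levels of different genes were compared per length, as RPKM, reads scaled to the length of the merged exons and to all reads on genes of the library. On this scale the order was Myl9 (175 ± 41.2, SD over 10 libraries), Acta2 (125 ± 29.4), Tagln (122 ± 30.2), Actg2 (108 ± 30.8), Myh11 (99.4 ± 22.6), Des (73.8 ± 16.6), Mylk (59.6 ± 8.18), Cnn1 (32.7 ± 8.41), Smtn (16.6 ± 3.56) and Lmod1 (8.73 ± 1.44). Neighbours from Myl9 down to Mylk did not differ by more than the sum of their SDs, whereas those from Mylk to Lmod1 did. Within libraries, the steps from Mylk to Cnn1, Cnn1 to Smtn, Smtn to Lmod1, Myl9 to Acta2 and Myh11 to Des held in 10 of 10. The steps from Tagln to Actg2 and from Des to Mylk held in 9, and those from Acta2 to Tagln and from Actg2 to Myh11 in 6. Merged exons of GENCODE M21 count every isoform, so the level of a gene with long, seldom used exons is understated. Exons of 4 of the 10 genes overlap exons on the opposite strand. The widest overlap is that of Tagln with the antisense gene Gm48529, over 1241 bases or 62.4% of its exons, and no value of Gm48529 was used here. Tagln also shares 108 bases (5.43%) with Pcsk7 (mean 663 normalized counts), and Smtn shares 714 (16.3%) with Gm11946 (mean 242) and 39 with Gm11947 (mean 1.13). Mylk shares 548 bases with E130310I04Rik and 224 with Gm21691, neither of which has a value here, and Des shares 220 with Gm15179 (mean 0). Whether counting used strand is not given in the sources used here, so reads from these stretches cannot be told apart.

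**Figure D4:**
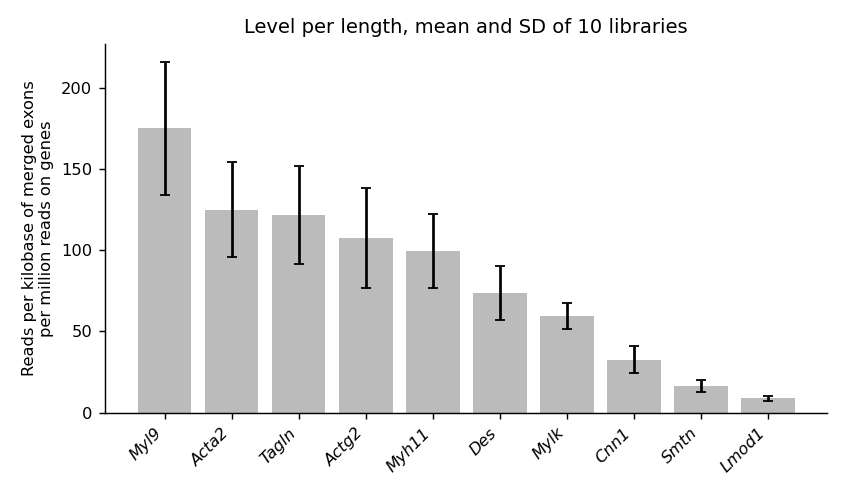
Level per length of the 10 genes (y axis, RPKM over merged exons and reads on genes, from 0; x axis, genes in falling order); bars are means and lines the SD of all 10 libraries. Levels fall from 175 for Myl9 to 8.73 for Lmod1, and the bars of neighbours overlap within their SD down to Mylk.

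Other genes of the same machinery gave the same picture between genotypes. They were read in lists by role, not picked for how they moved: 30 further genes of the contractile apparatus, 28 of signalling to contraction, and 20 transcriptional regulators. Of the 28, 28 and 19 that passed the filter on low values, limma called 0 in each list, higher or lower. Their median log2 fold changes were -0.089, -0.043 and 0.026, and 0, 1 and 1 had an unadjusted p under 0.05. In the contractile apparatus the most abundant were Tpm1, tropomyosin 1 (6005 ± 662 in Vil-Cre and 6153 ± 895 in Vil-Cre:NDI1, SD, n = 5), and Myl6, the essential light chain (5060.02 ± 571 and 5243 ± 631). Ldb3, a Z-disc protein, had the smallest p of that list, with a log2 fold change of 0.31 (limma, unadjusted p = 0.119).

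In signalling, Atp2a2, the calcium pump of the sarcoplasmic reticulum, was among the most abundant and had a log2 fold change of -0.03. The 1 gene with an unadjusted p under 0.05 was Itpr1, the IP3 receptor that releases stored calcium, with 254 ± 32.0 normalized counts in Vil-Cre mice and 206 ± 34.7 in Vil-Cre:NDI1 mice (SD, n = 5; log2 fold change -0.31; limma, Benjamini-Hochberg adjusted p = 0.998). Among regulators it was Gata6, a GATA factor also made by epithelium, at 1306 ± 204 and 1586 ± 120.3 (log2 fold change 0.29; limma, adjusted p = 0.998). Klf4, which represses muscle genes and is abundant in epithelium, was the most abundant regulator, with a log2 fold change of 0.03. Of 58 genes of these lists with a mean of at least 100, 20 had an r above 0.8 with the mean of the 10 muscle genes, as did 1.73% of the 9111 genes of that level outside the 10.

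The lists differed in how their mean followed the 10 genes over the 10 libraries. The mean of the contractile apparatus did so at r = 0.988 (rho 0.988; 0.931 without the low libraries) and that of signalling at r = 0.946 (rho 0.879; 0.759 without). The mean of the regulators followed them at r = 0.224 (rho 0.236; -0.276 without). Serum response factor itself, Srf, had a mean of 675 normalized counts and r = 0.694, and its coactivator Myocd had a mean of 42.6 and r = -0.202. These lists had 83 promoter windows from 60 genes, so a gene can count more than once. Of the 83, 9 (10.8%) held a strict CArG match and 19 (22.9%) a match with at most 1 other base. Over all 32851 promoter windows the shares were 1.47% and 8.59%.

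Some markers of other kinds of muscle were at 0 and others were counted at low levels. Of the skeletal muscle markers, Myh4 and Myod1 were at 0 reads in all 10, and of the cardiac markers Myl2 was at 0, with at most 5 reads of Actc1 in any library. Of the 10 skeletal and 8 cardiac markers found, 3 and 4 passed the filter. The summed skeletal markers were 117 to 197 normalized counts in Vil-Cre and 101 to 242 in Vil-Cre:NDI1, and the summed cardiac markers 78.9 to 163 and 93.9 to 159.6. The most abundant were Ckm, muscle creatine kinase (mean 77.7), and Tnnt2, cardiac troponin T (mean 64.6). Mylpf, a fast skeletal light chain, was at 150.0 in Vil-Cre:NDI1 1 and 123 in Vil-Cre 5 and at 6.01 to 50.4 in the other 8. Acta1, the skeletal actin, had a log2 fold change of -0.90 at a mean of 26.7 normalized counts (limma, unadjusted p = 0.019, Benjamini-Hochberg adjusted p = 0.998). It was the only 1 of the 3 tested skeletal markers below 0. The other 2 were above 0, and the median of the 3 was 0.31.

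Markers of other cell types of the gut wall were read beside the muscle genes. The mean of 11 enteric neuron markers followed the muscle genes at r = 0.945 (rho 0.903; 0.816 without the low libraries), and that of 8 tested pericyte and vascular muscle markers at 0.940 (rho 0.903; 0.714 without). Both were low in the low libraries, at -0.58 and -0.52 on the centred log2 scale in Vil-Cre 4 and at -0.38 and -0.39 in Vil-Cre:NDI1 1. The summed neuron markers were 452 to 971 normalized counts in Vil-Cre and 607 to 905 in Vil-Cre:NDI1, and the summed pericyte markers 2220.4 to 4299.9 and 2463 to 3490. Interstitial cells of Cajal, the pacemaker cells of the muscle layer, followed less closely (5 markers, r = 0.500, rho 0.539, 0.289 without), as did fibroblasts (9 markers, r = 0.598, rho 0.455, 0.151 without). For glia (4 tested) r was -0.310, and 0.452 without the low libraries, so that its sign rested on them. For endothelium (7 markers) r was -0.059, and -0.438 without.

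On the log scale, the mean of the fat cell markers was low in the same pair of libraries and in Vil-Cre 5, whose muscle genes were not low. This mean over 5 tested markers was -2.52 on the centred log2 scale in Vil-Cre 4, -3.42 in Vil-Cre:NDI1 1 and -1.68 in Vil-Cre 5, against 0.37 to 1.85 in the other 7. By summed normalized counts Vil-Cre 5 was the lowest of all, at 1007, with 1113 in Vil-Cre 4 and 1495 in Vil-Cre:NDI1 1. The other 7 were at 1580 to 2858, so by this sum Vil-Cre:NDI1 1 was only slightly below the lowest of them. Cfd, the adipocyte protease adipsin, was at 5.06 and 0.980 normalized counts in Vil-Cre 4 and Vil-Cre:NDI1 1, and at 76.7 to 975 in the other 8. Adipoq, adiponectin, was at 1.01 and 0, against 7.77 to 164 in the other 8. In Vil-Cre 4 and Vil-Cre:NDI1 1 nearly all of the summed count came from other markers of the list. Over all 10 libraries the mean of these markers followed the muscle genes at r = 0.758 (rho 0.394), and at -0.0014 among the other 8. Enterocyte markers did not share the pattern: the mean of 11 markers followed at r = -0.059 (rho 0.103), and it was 0.05 and 0.12 in the low libraries. The part of these cell types in the muscle values was not tested.

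**Figure D5:**
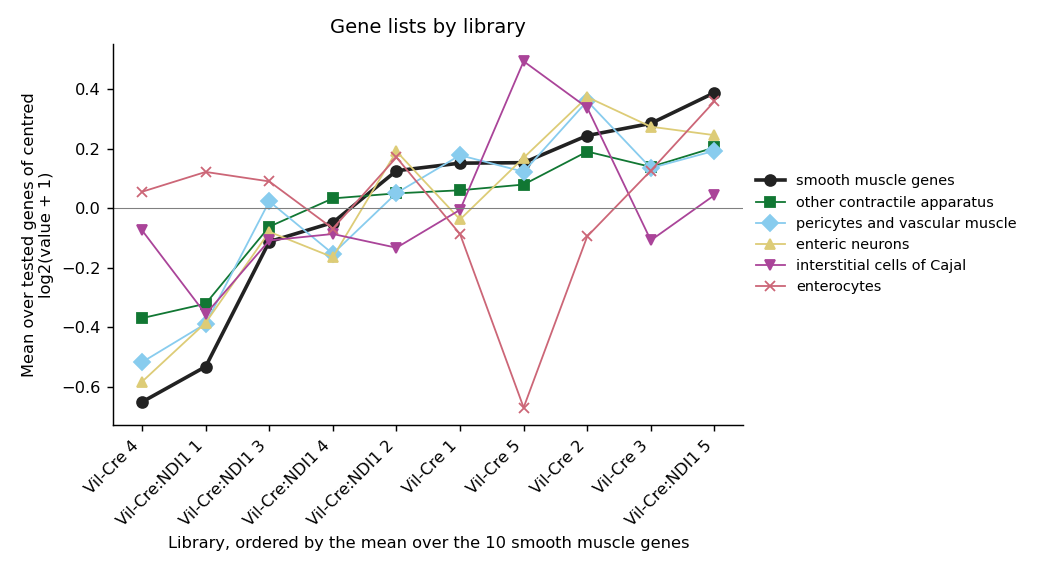
Mean over the tested genes of each list of log2(normalized count + 1) minus the mean of each gene (y axis) in the 10 libraries (x axis, ordered by the 10 smooth muscle genes, black line). The contractile apparatus, pericyte and neuron lists are lowest in Vil-Cre 4 and Vil-Cre:NDI1 1, whereas enterocyte markers stand at 0.05 and 0.12 there.

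Between genotypes, limma called 0 markers of any of these cell types. Kit, the receptor that marks interstitial cells of Cajal, had 246 ± 70.6 normalized counts in Vil-Cre mice and 159 ± 41.5 in Vil-Cre:NDI1 mice (SD, n = 5; log2 fold change -0.62; limma, unadjusted p = 0.021, Benjamini-Hochberg adjusted p = 0.998). Pdgfra, a receptor of gut fibroblasts, was at 334 ± 16.7 and 265 ± 48.2 (log2 fold change -0.35; limma, unadjusted p = 0.014, adjusted p = 0.998). The abundant vascular muscle and pericyte gene Rgs5 was at 2183 ± 622 and 1910.4 ± 352. The endothelial genes Cdh5, VE-cadherin, and Kdr, a VEGF receptor, had log2 fold changes of opposite sign, -0.48 and 0.35 (limma, unadjusted p = 0.024 and 0.037, Benjamini-Hochberg adjusted p = 0.998 for both). All 9 fibroblast markers (median -0.16) and all 4 tested mesothelium markers (median -0.47) had a log2 fold change below 0. All 11 enterocyte markers had one above 0 (median 0.22). Of all genes tested, 48.8% had a log2 fold change below 0. Markers of 1 cell type share the same tissue pieces, so their shared sign is not as many separate observations. The mean of the enterocyte markers was lowest in Vil-Cre 5, at -0.67 on the centred log2 scale, against -0.09 to 0.36 in the other 9 libraries.

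The 10 genes outside the set whose levels were most like its mean over the 10 libraries, among 9111 genes with a mean of at least 100, were Csrp1 (r = 0.981), Tpm2 (0.980), Pdlim3 (0.975), Slc25a4 (0.965), Adcy5 (0.960), Tpm1 (0.941), Samd4 (0.936), Synm (0.933), Aqp7 (0.932) and Cldn4 (0.932). Csrp1, Tpm2, Pdlim3, Tpm1 and Synm are in the list of the contractile apparatus, whereas Slc25a4 encodes a mitochondrial ADP/ATP carrier, Aqp7 a glycerol channel and Cldn4 a tight junction protein of epithelium. Csrp1 was at 1083 and 1162 normalized counts in Vil-Cre 4 and Vil-Cre:NDI1 1 and at 1698 to 2210.3 in the other 8, and Cldn4 at 1792 and 2642 against 2943 to 4799. Without the low libraries r was 0.919 for Csrp1, 0.964 for Tpm2 and 0.890 for Cldn4. The least like were Mgam2-ps (r = -0.961), Lmbrd2 (-0.941), Cops2 (-0.927), Suz12 (-0.908) and Unkl (-0.894). Suz12, a subunit of Polycomb repressive complex, was highest in the low libraries, at 825 and 728 against 502 to 649. These likenesses are over 10 libraries that share the scaling and the same low libraries, and they are descriptions.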

How the data were processed

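Jejunal RNA of 5 Vil-Cre and 5 Vil-Cre:NDI1 mice was sequenced (single end, 100 cycles). Per the study's methods, the authors trimmed reads with trimGalore! 0.6.7, aligned them with STAR 2.6.1d to GRCm38 with NDI1 added, quantified genes with Salmon 1.10.1 in nf-core/rnaseq 3.12.0, and normalized with DESeq2. The annotation release and the strand setting are not given in the sources used here. The deposited values are a signal, normalized counts per gene, not raw counts. All non-zero values were whole multiples (tolerance 0.001) of the smallest value of their library, taken as 1 read; for Vil-Cre 3 and Vil-Cre 4 this step is too near to 1 for a check against rounding to decide, so tests on reads were also run on the other 8 libraries. Per-sample columns left unused numbered 0.

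The 10 genes, the further lists and the tests were chosen with earlier results of these data known. Groups came from the sample labels. The main test was limma 3.58.1 (R 4.3.3) on log2(value + 1), with trended empirical Bayes. A gene entered when 5 or more mice reached 10 normalized counts, and calls were made at 0.05 after Benjamini-Hochberg adjustment. A fold change on this scale understates that of low genes. DESeq2 1.42.0 (the authors' size factors) and edgeR 4.0.16 (TMM) were run on the recovered reads. Fits were tested on simulated data. Alternatives were pseudocounts of 0.1 and 8, a minimum of 50, no filter, equal totals, no variance trend, array weights, a replicate block and each mouse left out. Named genes are the 10 members, NDI1, the 2 most abundant and the lowest-p gene of each list, and the 10 most and 5 least like genes; of the marker lists only some are printed, and 1 gene that this rule takes is not reported here. Srf, Myocd, Cfd, Adipoq, Xist and the markers at or near 0 were named after their values were seen. Same-numbered mice did not deviate together (correlations -0.116 to 0.136 over 14301 genes), so numbers do not pair them. No pair of libraries agreed within sampling noise (chi-square per gene 13.2 to 61.9). Mice are separate animals, and intervals cover the spread between these mice. Positions and exon lengths are from GENCODE M21 (45143 of 45707 identifiers found), promoter windows from RefSeq. No stretch of 100 bases of the 10 genes' transcripts occurred in the same strand of another gene's transcript.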

Additional observations from a re-analysis of the deposited data

Results flagged for a closer look

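In 4 of the 20 groups of 5 mice tested (10 genes in 2 genotypes), 1 mouse lay far from the other 4 by the ratio of its gap to the range of the group; chance gives about 1 in 20 groups. In all 4 the mouse was Vil-Cre 4 and the value was the lowest. Acta2 had 1847 normalized counts there, and 3321 to 3808 elsewhere in Vil-Cre (gap over range 0.752). Actg2 was at 873, against 2000.5 to 2142 (0.889). Tagln was at 1526, against 2779 to 3276 (0.716). Des was at 1819, against 3331 to 3699 (0.804). Since these genes move together between mice, these are not 4 separate observations. In Vil-Cre:NDI1 no mouse passed the critical value of 0.710, although Vil-Cre:NDI1 1 was the lowest of its group for all 10 genes.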

How the results depend on the processing

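The 10 muscle genes were called 0 times in all 23 alternatives, 3 of them chosen after seeing the data (DESeq2 and edgeR on 8 libraries, and limma without Vil-Cre 4 and Vil-Cre:NDI1 1), and so were the wider muscle lists; the lowest adjusted p of a muscle gene was 0.517, with DESeq2 on 8 libraries. The count of all genes called, 1 in the main test, was 2 with a minimum of 50 and with array weights, 24 with DESeq2, 266 with DESeq2 on 8 libraries, and 1 to 3 with a mouse left out (3 without Vil-Cre:NDI1 5, 2 without Vil-Cre:NDI1 1 or 2); the cause was not tested. edgeR called 1 gene, and the replicate block called 1 and left the median log2 fold change of the muscle genes at -0.083 and changed no call. That median was -0.15 with equal totals, -0.14 with array weights, and -0.26 (without Vil-Cre 4) to 0.049 (without Vil-Cre:NDI1 1) with a mouse left out. Log2 fold changes that changed sign were, for Actg2, -0.0097 with equal totals, -0.063 with array weights, -0.11 with DESeq2 and -0.11 with edgeR on 8 libraries. For Smtn they were -0.055 with equal totals, -0.035 with array weights, -0.012 with DESeq2, -0.025 with edgeR, -0.12 with DESeq2 and -0.12 with edgeR on 8 libraries, and -0.063 without both low libraries. With a mouse left out the ranges that crossed 0 were -0.20 to 0.27 for Actg2, -0.17 to 0.12 for Smtn, -0.26 to 0.087 for Tagln, -0.26 to 0.087 for Cnn1, -0.25 to 0.057 for Des, -0.32 to 0.0023 for Acta2 and -0.28 to 0.041 for Myl9. With 5 mice per genotype, the 95% intervals bound each difference, from -0.38 to 0.18 for Mylk and -0.60 to 0.71 for Actg2 on the log2 scale, and do not show that there is none.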
